A study of Mus musculus with 23 samples.

Results

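The 10 genes described here are ATF4 and genes that respond to amino acid shortage with it: Atf4, Atf5, Ddit3, Trib3, Sesn2, Ddit4, Chac1, Asns, Mthfd2 and Psat1. They were listed by name and matched to the Ensembl identifiers of the deposited counts through a GRCm38 annotation, which found 10 of 10 among the 38293 genes counted. All 10 passed the filter on low counts, which left 16087 genes for testing.

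ATF4 is the transcription factor at the centre of the integrated stress response. Kinases that sense amino acid shortage, unfolded protein, haem shortage or double-stranded RNA phosphorylate the initiation factor eIF2α, which lowers protein synthesis in general but lets ribosomes reach the ATF4 coding sequence past upstream reading frames in the mRNA. ATF4 protein then binds C/EBP-ATF composite elements in genes for amino acid synthesis, amino acid transport, tRNA charging and feedback inhibitors of the response. Astrocytes supply glutamine, serine and glutathione precursors to neurons, and several enzymes of the pathway belong to those routes. The counts measure mRNA, and no protein was measured.

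The cells were primary cultures of cortical astrocytes, the star-shaped glia of the brain, from mouse pups of a mixed 129/OLa, 129/Sv, BALB/c and C57BL/6 background at postnatal day 3. They grew for 7 days and then spent 24 h in 0.1% serum deprived of thyroid hormone, which all groups shared. The 6 groups were 24 h with T3 (triiodothyronine, the active thyroid hormone, at 10 nM; 3 libraries), 24 h control, 6 h CHX plus T3, 6 h CHX, 6 h T3 and 6 h control, with 4 libraries in each of the last 5. CHX was given at 8 µg/ml, 30 min before T3 where both were used, and is read here as cycloheximide, which blocks ribosomes during elongation. The study asked how astrocytes respond to T3, and in such a design the CHX arm asks which responses occur while protein synthesis is blocked. No label ties a library to its own culture or litter. The spread that enters the p-values may therefore be partly technical.

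Libraries held 13843040 to 22997873 gene counts. All 11 markers of the labelled cell type were detected, with a summed level of 7940 to 12855 CPM (gene counts divided by the TMM-scaled library size), although S100b averaged 3.95 CPM. Summed levels were 27.8 to 96.6 CPM for 10 microglial markers, 224 to 648 CPM for 8 of the oligodendrocyte lineage, 413 to 556 CPM for 7 neuronal and 231 to 478 CPM for 8 vascular and meningeal markers. Mog, Cldn5, Pecam1 and Vtn were too low to be tested. Hr, a corepressor induced by T3, was higher with T3 than in control by 4.26 ± 0.08 log2 (SE) at 6 h and by 3.73 ± 0.08 log2 at 24 h. The share of alignments that were not unique was 30.7 to 32.9% in the 8 CHX libraries, against 36.2 to 42.3% in the 15 others. The share counted as ambiguous was 1.63 to 1.7% in the CHX libraries and 1.4 to 1.55% in the others. Both shares moved with CHX, and their part in the results was not tested.

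**Figure D1:**
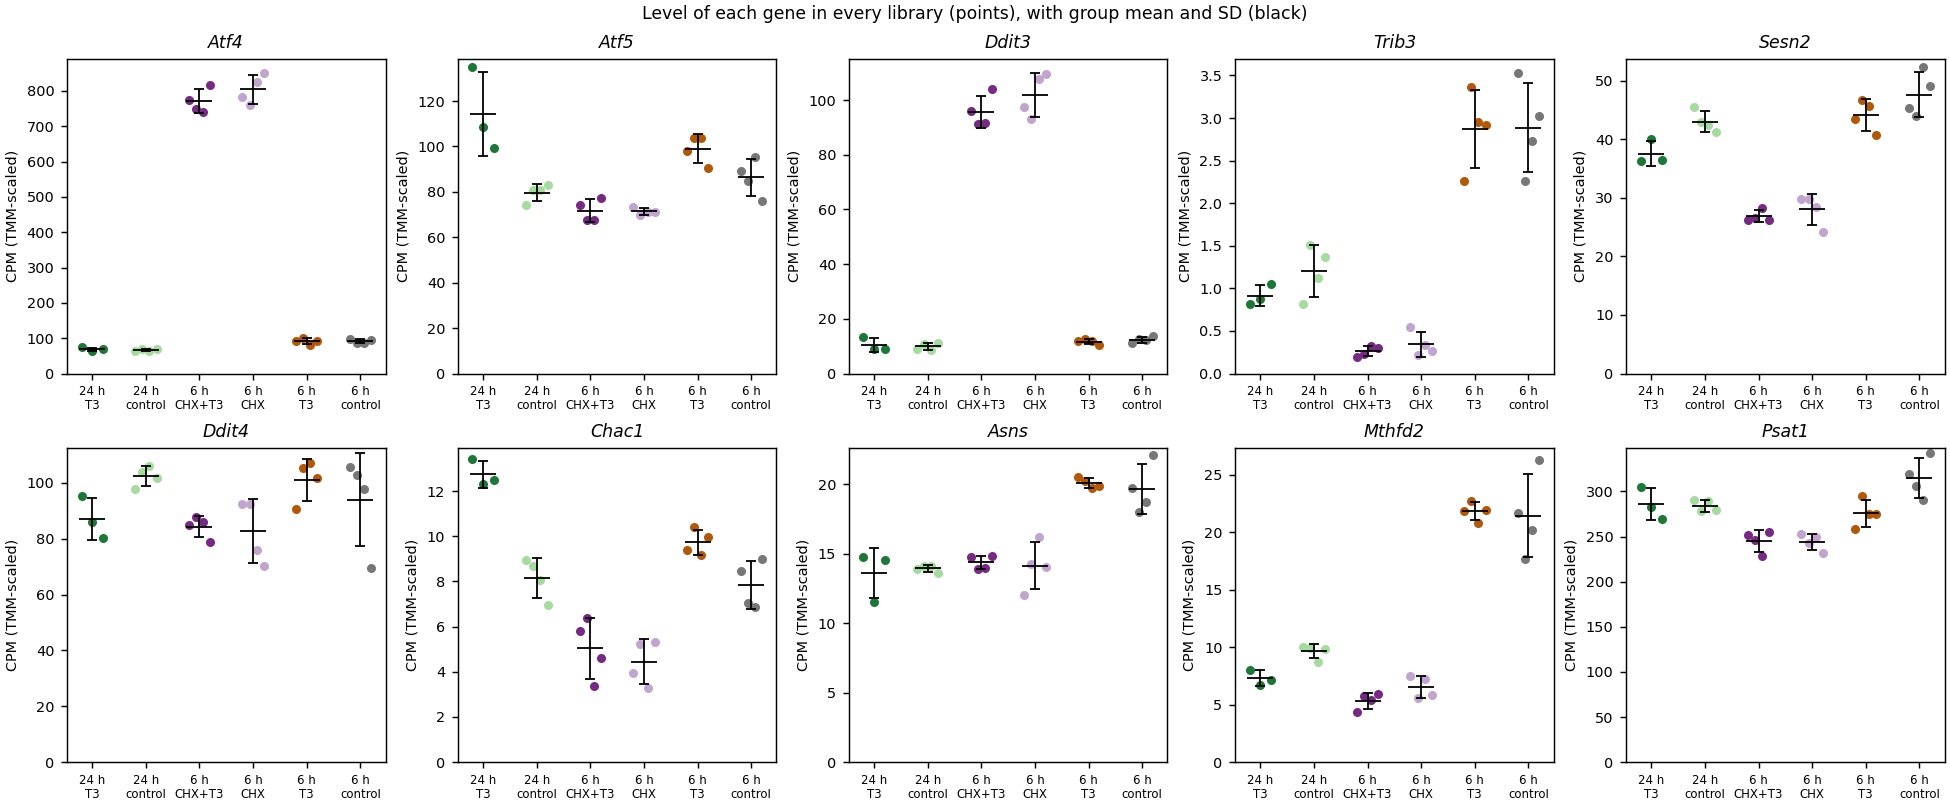
Level of each of the 10 genes in every library, in CPM on TMM-scaled library sizes, on linear axes that start at 0. Points are libraries, and black bars are group means with SD (n = 4, and 3 for 24 h T3). Atf4 and Ddit3 stand high in both CHX groups, where Trib3, Mthfd2, Chac1 and Sesn2 stand low.

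Under CHX, Atf4 and Ddit3 moved opposite to the enzymes of the pathway. Of the 10 genes, 2 rose with CHX against control at 6 h: Atf4 was 8.79-fold and Ddit3 8.24-fold higher. Another 7 fell, including all 4 enzymes, Trib3, Sesn2 and the factor Atf5, while Ddit4 was not called. These counts come from edgeR's quasi-likelihood test with Benjamini-Hochberg adjustment over all genes, called at an adjusted p under 0.05. CHX moved much of the transcriptome in the same test: 37% of all genes rose and 30.6% fell, 67.5% in all. The 9 calls among 10 genes are therefore read against that background, and the sizes are given for each gene. The median change of the 10 genes was -0.42 log2, against 0.06 log2 over all genes tested, and the median size regardless of sign was 0.79 log2, against 0.47 log2.

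Atf4 lies on chromosome 15 (GRCm38, 80255184 to 80257541, plus strand). It had 784, 760, 826 and 851 CPM in CHX libraries, against 96.5, 86.7, 87.5 and 95.7 CPM in control libraries. The groups were far apart, and the lowest CHX library held 14110 reads of Atf4 where the highest control library held 1560. The mean was 805 ± 40.9 CPM in CHX and 91.6 ± 5.21 CPM in control (SD, n = 4 each), a change of 3.14 ± 0.07 log2 (SE, edgeR adjusted p = 9.18e-22). This stood at the 99.5th percentile of changes over all genes tested.

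The second arm, CHX plus T3 against T3 at 6 h, shares no library with the first. Atf4 had 775, 750, 741 and 818 CPM in CHX plus T3 libraries, against 91.4, 102, 81.3 and 92.2 CPM in T3 libraries, a change of 3.07 ± 0.07 log2 (edgeR adjusted p = 1.34e-21). In that arm 2 of the 10 genes rose and 8 fell, where 36.3% of all genes rose and 31% fell, 67.3% in all. The groups of all 10 were apart, 2 above and 8 below, as were 34.4% and 29.2% of all genes. The 6 h T3 libraries were on sequencing lane 5 and the CHX plus T3 libraries on lane 6, so lane and CHX cannot be told apart in the second arm. In the first arm, the comparison within lane 5, with 3 CHX and 4 control libraries, gave 3.06 log2 for Atf4, 2.96 log2 for Ddit3 and -2.98 log2 for Trib3, and the same numbers of genes called, 2 higher and 7 lower.

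Ddit3 encodes CHOP, a C/EBP family factor that pairs with ATF4 and favours cell death under lasting stress. It lies on chromosome 10 (127290774 to 127296288, plus strand). It had 97.4, 93.0, 108 and 109 CPM in CHX libraries, against 11.2, 12.5, 12.2 and 13.7 CPM in control libraries. No library came between the groups, and the change was 3.04 ± 0.10 log2 (edgeR adjusted p = 3.56e-18). In the second arm it was also 3.04 ± 0.10 log2, from 95.7 ± 5.96 CPM in CHX plus T3 and 11.6 ± 0.829 CPM in T3 (SD, n = 4 each). The kit marked no strand, and exons of Mars and Gm4189 on the opposite strand overlap Ddit3. The overlap was 81 nt summed over both genes. As the counting mode is not stated, reads there could be set aside as ambiguous or credited to either gene.

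Atf5, the relative of ATF4 that is induced with it in stressed cells, did not follow Atf4 or Ddit3. It lies on chromosome 7 (44812256 to 44816658, minus strand), and exons of Il4i1 and Nup62 on the opposite strand overlap it, by 164 nt summed over both genes. It had 73.5, 69.9, 71.3 and 71.1 CPM in CHX libraries, against 89.3, 84.7, 95.5 and 76.1 CPM in control libraries. The CHX libraries were all below the control libraries by a small margin, a change of -0.28 ± 0.08 log2 (edgeR adjusted p = 0.0036). In the second arm the change was -0.46 ± 0.08 log2, from 71.8 ± 4.93 CPM in CHX plus T3 and 99.1 ± 6.33 CPM in T3 (SD, n = 4 each).

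Upstream ATG triplets, which can carry the reading frames that govern ATF4 translation, were counted in the leader sequences. By the GENCODE transcript model with the longest coding sequence as chosen here, the 5′ UTR held 3 ATG triplets in Atf4, 2 in Atf5 and 2 in Ddit3. Asns, Psat1 and Sesn2 held 1 each, and Trib3, Ddit4, Chac1 and Mthfd2 none. Of 13464 tested genes with such a model, 29.9% held at least 2 and 51.9% at least 1. The triplets were counted without regard to frame or to use by ribosomes.

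**Figure D2:**
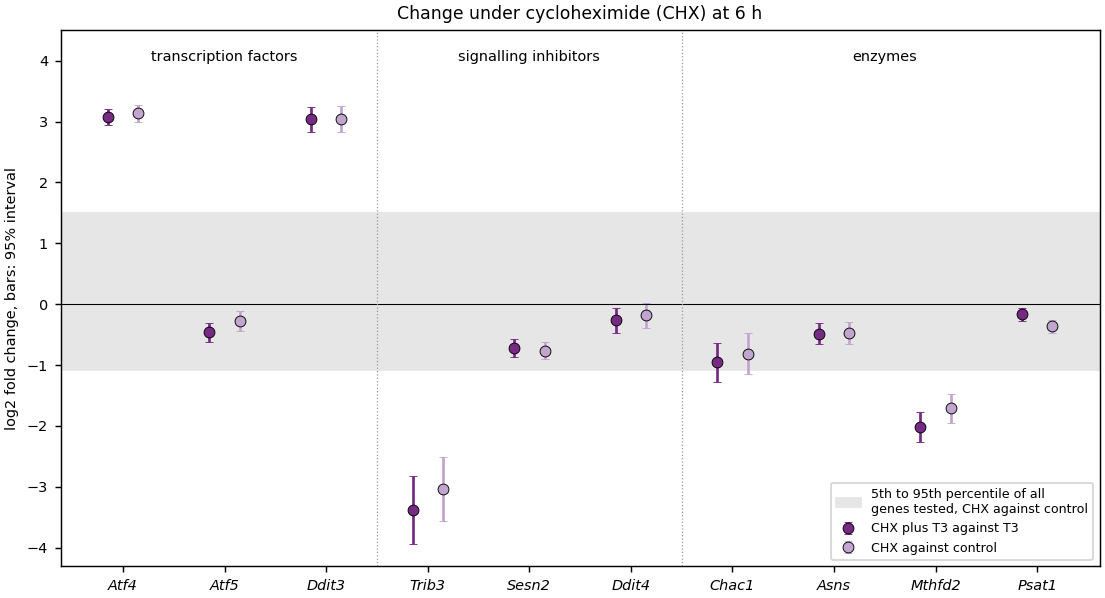
Log2 fold change of the 10 genes under CHX at 6 h, as CHX plus T3 against T3 (dark) and CHX against control (light), with 95% intervals from edgeR. The grey band spans the 5th to the 95th percentile of all genes tested. Atf4 and Ddit3 lie above the band near 3 log2, Trib3 and Mthfd2 lie below it, and the other 6 genes lie inside it at or below 0.

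Among the inhibitors, Trib3 had the largest fall of the 10 genes. TRIB3 is a pseudokinase induced by ATF4 and CHOP that dampens ATF4 activity and AKT signalling. Its gene lies on chromosome 2 (152337422 to 152344032, minus strand). It had 0.546, 0.215, 0.338 and 0.27 CPM in CHX libraries, against 3.53, 2.27, 2.73 and 3.03 CPM in control libraries. The libraries of the groups did not overlap, but the levels were low, with 4 to 11 reads per CHX library and 38 to 57 per control library. Trib3 was 8.19-fold lower in CHX, a change of -3.03 ± 0.26 log2 (edgeR adjusted p = 1.38e-10) at the 0.118th percentile of all genes. In CHX plus T3 against T3 it was -3.38 ± 0.27 log2, resting on 3 to 6 reads per CHX plus T3 library.

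Sesn2 and Ddit4 encode Sestrin 2 and REDD1, stress-induced inhibitors of the growth kinase complex mTORC1. Sesn2, on chromosome 4 (132492032 to 132510501, minus strand), had 29.7, 29.8, 28.5 and 24.2 CPM in CHX libraries, against 45.3, 43.9, 52.3 and 49.0 CPM in control libraries. The groups were apart, and the change was -0.76 ± 0.07 log2 (edgeR adjusted p = 7.97e-10). In CHX plus T3 against T3, Sesn2 changed by -0.72 ± 0.07 log2.

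Ddit4, on chromosome 10 (59949669 to 59951834, minus strand), was the gene of the 10 that was not called in the first arm. It had 92.4, 92.6, 76.1 and 70.3 CPM in CHX libraries, against 106, 103, 97.9 and 69.7 CPM in control libraries, and the lowest value of all belonged to control replicate 4. The change was -0.18 log2 with a 95% interval of -0.39 to 0.02 (edgeR adjusted p = 0.108). Without control replicate 4 it was -0.30 log2 with an adjusted p of 0.00271, and the call was also reached with RLE scaling, with upper-quartile scaling, without 24 h control replicate 2 and by DESeq2 (adjusted p = 0.0469, 0.0303, 0.043 and 0.046). Against T3, Ddit4 fell by 0.26 ± 0.10 log2 in CHX plus T3 (edgeR adjusted p = 0.0243). That call ended with total-count scaling, without the length and GC trends, without T3 replicate 2 or 3 or CHX plus T3 replicate 4, and with lane as a covariate, where the change was 0.05 log2.

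The 4 enzymes fell in both arms, by unequal amounts. MTHFD2, a mitochondrial folate enzyme of one-carbon metabolism, is encoded on chromosome 6 (83305691 to 83325908, minus strand). Mthfd2 had 7.49, 5.55, 7.21 and 5.83 CPM in CHX libraries, against 21.7, 17.7, 20.2 and 26.3 CPM in control libraries. The highest CHX library was well under the lowest control library, and the change was -1.71 ± 0.12 log2 (edgeR adjusted p = 2.3e-12), at the 1.33rd percentile of all genes. In the second arm it was -2.02 ± 0.12 log2.

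Chac1 encodes an enzyme that breaks down glutathione and lies on chromosome 2 (119351229 to 119354381, plus strand). It had 3.97, 5.22, 3.27 and 5.34 CPM in CHX libraries, against 8.48, 7.04, 6.87 and 9.01 CPM in control libraries. The groups did not overlap, and the change was -0.81 ± 0.16 log2 (edgeR adjusted p = 9.75e-05). In CHX plus T3 against T3, Chac1 changed by -0.96 ± 0.16 log2.

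Asns encodes asparagine synthetase, which makes asparagine from aspartate and glutamine, and lies on chromosome 6 (7675169 to 7693254, minus strand). It had 12.1, 14.3, 16.2 and 14.03 CPM in CHX libraries, against 19.7, 18.0, 18.7 and 22.1 CPM in control libraries. All CHX libraries were below all control libraries, by -0.47 ± 0.09 log2 in the fit (edgeR adjusted p = 3.38e-05), and the change with T3 in both groups was -0.48 ± 0.09 log2.

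Psat1 encodes phosphoserine aminotransferase of the serine pathway, which is strong in astrocytes, and lies on chromosome 19 (15904678 to 15947337, minus strand). It had 252, 243, 249 and 232 CPM in CHX libraries, against 319, 306, 290.3 and 343 CPM in control libraries. These groups were apart too, by -0.37 ± 0.05 log2 (edgeR adjusted p = 2.31e-06). In CHX plus T3 against T3 the change was -0.17 ± 0.05 log2 (edgeR adjusted p = 0.0091), and it was not called with total-count scaling (adjusted p = 0.0934) or with lane as a covariate (adjusted p = 0.611).

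Counted by overlap rather than by the test, 2 of the 10 genes had all CHX libraries above all control libraries and 7 had them all below, where 34.3% and 28.4% of all genes did. Some cell type markers were also called with CHX, and their counts are read against all genes. Of all genes 37% rose and 30.6% fell against control, and 36.3% rose and 31% fell in the second arm. Against control, 8 of 11 astrocyte markers fell (summed level 8329 to 9912 CPM in CHX and 11166 to 11962 CPM in control), and 3 of 7 tested oligodendrocyte lineage markers fell while 2 rose (239 to 344 CPM and 384 to 432 CPM). Of 10 microglial markers 2 fell (31.1 to 48.8 CPM in CHX and 43.6 to 54.7 CPM in control), 1 of 7 neuronal markers fell (424 to 461 CPM and 478 to 519 CPM), and of 5 tested vascular and meningeal markers 1 rose and 1 fell (231 to 370 CPM and 287 to 478 CPM). In the second arm 8 astrocyte markers fell (7940 to 8492 CPM in CHX plus T3 and 12563 to 12855 CPM in T3), as did 7 microglial markers (27.8 to 31.8 CPM and 57.8 to 64.2 CPM) and 5 of the oligodendrocyte lineage, in which 1 rose (224 to 239 CPM and 408 to 456 CPM). Of the neuronal markers 2 fell (413 to 458 CPM and 490 to 553 CPM), and of the vascular and meningeal markers 1 rose and 1 fell (266 to 347 CPM and 286 to 396 CPM). The part of these changes in the results was not tested, and in bulk RNA fewer cells of a type and less RNA per cell cannot be told apart.

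Promoter stretches are shown because ATF4 and CHOP are known to act on their targets through the C/EBP-ATF composite element. RefSeq promoter windows of GRCm38.p6, from 250 bases before to 50 after each start, were found for 10 of 10 genes and searched on both strands for TGATGNAAN and for the looser TGNTGNAAN. The stricter letters were in the windows of Chac1, Asns and Trib3, in Trib3 after the start and not shown, and in 3.95% of 32851 windows in all. The looser letters, which include the stricter ones, were in those of Chac1, Asns, Trib3, Psat1 and Sesn2, and in 14.8% of all windows. The windows of Atf4, Atf5, Ddit3, Mthfd2 and Ddit4 held neither. Each sequence is printed on the gene's strand, with the match in capitals and its positions counted from the RefSeq start, which in Psat1 lies inside the GENCODE gene.
Chac1, positions -194 to -186, chr2:119351028-119351076, match on the other strand: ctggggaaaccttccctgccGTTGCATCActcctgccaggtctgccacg
Asns, positions -23 to -15, chr6:7693210-7693252, match on the gene's strand: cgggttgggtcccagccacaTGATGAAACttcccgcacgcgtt
Trib3, positions -33 to -25, chr2:152344065-152344113, looser match on the gene's strand: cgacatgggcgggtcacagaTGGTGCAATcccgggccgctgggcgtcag
Psat1, positions -136 to -128, chr19:15925167-15925215, looser match on the gene's strand: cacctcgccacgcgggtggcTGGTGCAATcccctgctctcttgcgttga
Sesn2, positions -219 to -211, chr4:132510647-132510695, looser match on the other strand: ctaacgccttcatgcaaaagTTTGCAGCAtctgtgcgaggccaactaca
The matches printed for Trib3 and Psat1 were the same 9 letters, and the Trib3 window also held the stricter match. Whether any match bears on a change under CHX was not tested. A match is a description of these letters and does not show binding.

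Levels were compared between genes as CPM per kb of exon. Under CHX, Atf4 was the highest of the 10 at 341 ± 17.3, followed by Ddit3 at 59.5 ± 4.66 and Psat1 at 57.4 ± 2.16, which overlapped, and Trib3 was the lowest at 0.161 ± 0.0681 (SD, n = 4 each). In control, Psat1 was the highest at 74.0 ± 5.21 and Trib3 the lowest at 1.36 ± 0.249. Between them in control came Ddit4, Atf5 and Atf4, neighbours whose libraries overlapped, then Sesn2, and then Ddit3, Asns, Mthfd2 and Chac1, each overlapping the next. The highest gene was 2120-fold above the lowest in CHX and 54.4-fold above it in control. In the other groups without CHX, Psat1 was again the highest and Trib3 the lowest, although Psat1 overlapped Ddit4 in 6 h T3 and Atf5 in 24 h T3. In CHX plus T3 the highest was Atf4, at 327 ± 14.5, and the lowest Trib3.

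Set against Atf4 in the same library, all targets but Ddit3 were far lower under CHX. Atf4 itself was 8.79-fold higher in CHX, so a gene with no change would have a ratio lower by about that much. As a description with no test, Asns had 1.51 ± 0.170 per 100 of Atf4 in CHX libraries and 18.5 ± 1.02 in control libraries, both as CPM per kb (SD, n = 4 each). Trib3 had 0.0473 ± 0.0208 per 100 of Atf4 in CHX and 3.48 ± 0.471 in control. Ddit3 had 17.4 ± 0.519 in CHX and 18.7 ± 1.82 in control, so its ratio to Atf4 differed by less than the spread among control libraries. The ratios of the enzymes were 11.3-fold lower in CHX for Psat1, 12.2-fold for Asns, 15.4-fold for Chac1 and 28.8-fold for Mthfd2. Atf5, itself a factor, had a ratio 10.7-fold lower. The ratio of Ddit4, whose own change was not called, was 9.96-fold lower. Not set against Atf4, the enzymes fell from 1.29-fold for Psat1 to 3.27-fold for Mthfd2.

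**Figure D3:**
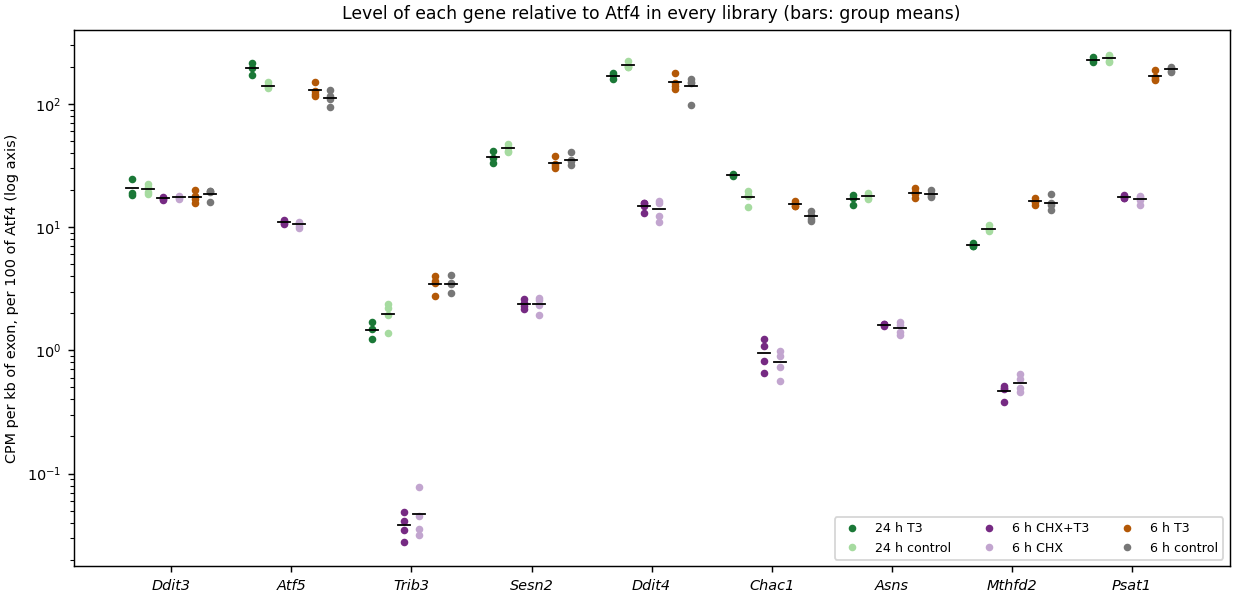
Level of 9 genes relative to Atf4 in every library, as CPM per kb of exon per 100 of Atf4, on a log axis. Points are libraries coloured by group, and black bars are group means. Ddit3 stays between 15.7 and 24.6 in all 23 libraries, while the other 8 genes are lower in the 8 CHX libraries than in the 15 others. Atf4 itself is higher in the CHX libraries, which lowers every ratio there.

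Other genes of the pathway were taken from lists of the known response. Of their 90 tested genes 22 rose and 48 fell with CHX against control, 77.8% in all. Of all genes 37% rose and 30.6% fell, 67.5% in all, and the counts of each list are read against those shares. Of the amino acid transporters 9 of 11 fell with CHX against control, with a median of -1.14 log2, against 0.06 log2 over all genes. Slc7a11, the cystine carrier that feeds glutathione synthesis, had 10.3 ± 1.79 CPM in CHX and 62.1 ± 5.17 CPM in control (SD, n = 4 each), a change of -2.60 ± 0.19 log2. Slc38a2, a carrier of small neutral amino acids, had 252 ± 15.7 CPM in CHX and 1106 ± 32.5 CPM in control, a change of -2.13 ± 0.07 log2. Slc6a9, a glycine carrier, changed by -1.86 ± 0.11 log2 and Slc7a5, the large neutral amino acid carrier, by -1.20 ± 0.06 log2. The transporter that rose was Slc3a2, the heavy chain that Slc7a5 and Slc7a11 share, by 0.50 ± 0.07 log2, and it was picked out after its value was seen.

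Synthesis enzymes outside the 10 genes fell as well. Of 10 other enzymes of amino acid synthesis 8 fell, with a median of -0.46 log2, including Glul, the glutamine synthetase that marks astrocytes, at 730 ± 20.0 CPM in CHX and 1333 ± 35.0 CPM in control. Got1 changed by -0.88 ± 0.07 log2 and Aldh18a1 by -0.51 ± 0.05 log2. Of 10 serine, glycine and one-carbon enzymes 6 fell and 1 rose, with a median of -0.25 log2. Psph, the last enzyme of serine synthesis, changed by -0.54 ± 0.10 log2, Shmt2 by -0.40 ± 0.07 log2, and Mthfd1 rose by 0.25 ± 0.05 log2. Of 13 genes for tRNA charging and export 5 rose and 5 fell, with a median of -0.07 log2, a split near the 37% and 30.6% of all genes. Among them Xpot fell by 0.66 ± 0.05 log2 while Lars rose by 0.56 ± 0.05 log2 and Tars by 0.40 ± 0.05 log2.

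Upstream regulators and other stress factors were divided. Of 7 eIF2α kinases and phosphatase regulators 5 rose and 1 fell, with a median of 0.49 log2, where 37% of all genes rose and 30.6% fell. Ppp1r15a, which encodes the stress-induced phosphatase subunit GADD34, had 190 ± 7.50 CPM in CHX and 39.1 ± 3.33 CPM in control (SD, n = 4 each), a change of 2.28 ± 0.06 log2. Its constitutive relative Ppp1r15b changed by -0.55 ± 0.05 log2, and Eif2ak1, the haem-sensing kinase, rose by 0.51 ± 0.04 log2. Of 11 tested stress factors and secreted targets 6 rose and 4 fell, with a median of 0.29 log2. Atf3, a factor induced downstream of ATF4, had 149 ± 30.1 CPM in CHX and 11.0 ± 2.11 CPM in control, a change of 3.78 ± 0.14 log2, while Xbp1, the factor of the IRE1 branch, changed by -1.65 ± 0.08 log2 and Vldlr by -1.14 ± 0.10 log2.

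The folding branch of the stress response did not rise with Atf4. Of 16 endoplasmic reticulum chaperones and folding genes 10 fell, with a median of -0.34 log2, led by Edem1, which directs misfolded glycoproteins to degradation, at -1.37 ± 0.06 log2. Pdia3 changed by -0.59 ± 0.05 log2 and Canx by -0.55 ± 0.05 log2. Hspa5, the chaperone BiP, had 499 ± 13.8 CPM in CHX and 488 ± 33.3 CPM in control (SD, n = 4 each) and was not called. Of 12 relatives of the 10 genes and other mTORC1 inhibitors 4 rose and 5 fell, with a median of 0.03 log2, where 37% of all genes rose and 30.6% fell. Sesn1 changed by -1.45 ± 0.06 log2, Ddit4l by -1.16 ± 0.07 log2, and Tsc1 rose by 1.14 ± 0.09 log2. All adjusted p-values of the genes named here as changed were under the 0.05 threshold in edgeR's test.

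**Figure D4:**
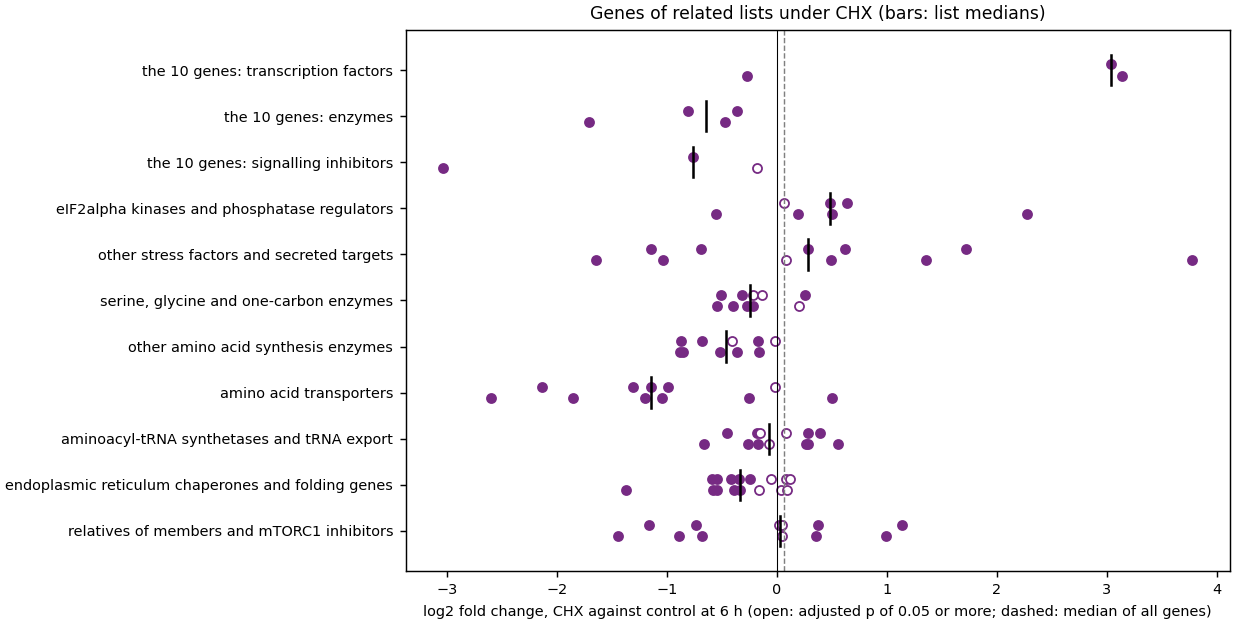
Log2 fold change with CHX against control at 6 h of the 10 genes by role and of related lists. Each point is a gene, open where the adjusted p was 0.05 or more, and black bars are list medians. The amino acid transporters have the lowest median among the related lists, at -1.14 log2.

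T3 changed few of the 10 genes. Against control at 6 h edgeR called none of them, where 3.77% of all genes were called (2.61% higher and 1.16% lower), and 3 of the 10 had an unadjusted p under 0.05. DESeq2 called 1, Psat1, which fell. The 95% intervals bound what could have been missed. For Atf4 the change was 0.00 log2 with an interval of -0.13 to 0.13, and for Ddit3 it was -0.09 log2 with an interval of -0.31 to 0.14. Psat1 had 258, 294, 275 and 275 CPM in T3 libraries, against 319, 306, 290.3 and 343 CPM in control libraries. These overlapped in 1 library of each group, and the change was -0.19 ± 0.05 log2 (edgeR adjusted p = 0.0518). It was called with RLE or upper-quartile scaling, with lane as a covariate, without the length and GC trends and with any of 6 libraries left out singly. Summed astrocyte markers were wholly higher with T3 at 6 h (12563 to 12855 CPM, against 11166 to 11962 CPM in control). So were summed microglial markers (57.8 to 64.2 CPM and 43.6 to 54.7 CPM), while the other marker lists overlapped. The part of these differences in the results was not tested.

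At 24 h T3 raised Atf5 and Chac1, where 4.41% of all genes rose and 2.68% fell, 7.09% in all. Their T3 libraries were also the 2 sets of the 10 that stood wholly above control, as did 8.13% of all genes. Atf5 had 135, 108 and 99.5 CPM in T3 libraries, against 74.1, 80.9, 80.7 and 82.8 CPM in control libraries. All T3 libraries were above all control libraries, by 0.52 ± 0.08 log2 (edgeR adjusted p = 0.000171). T3 replicate 1 was the highest and also had the largest share of non-unique alignments, 42.3%, and without it the change was 0.38 log2 (adjusted p = 0.00132). Without T3 replicate 3, which leaves libraries of lane 6 alone in both groups, it was 0.61 log2.

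Chac1 had 13.4, 12.3 and 12.5 CPM in 24 h T3 libraries, against 8.93, 8.70, 8.08 and 6.96 CPM in 24 h control libraries. The groups were apart, by 0.64 ± 0.15 log2 (edgeR adjusted p = 0.00951), and by 0.65 log2 without T3 replicate 3. Without T3 replicate 1 the change was 0.60 log2 (edgeR adjusted p = 0.028). At 6 h Chac1 had 9.38, 10.4, 9.16 and 9.97 CPM in T3 libraries, against 8.48, 7.04, 6.87 and 9.01 CPM in control libraries. Here too all T3 libraries were above all control libraries, as for 6.71% of all genes (4.81% were wholly below), but the change of 0.32 ± 0.15 log2 was not called (edgeR adjusted p = 0.287). The T3 effect on Chac1 at 24 h minus that at 6 h was 0.32 ± 0.22 log2, and on Atf5 0.32 ± 0.12 log2, neither of them called (adjusted p = 0.472 and 0.184 in edgeR).

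No fall with T3 at 24 h was called among the 10 genes by edgeR, while 3 had a negative change at an unadjusted p under 0.05 and DESeq2 called 1, Mthfd2. Mthfd2 had 8.06, 6.72 and 7.16 CPM in T3 libraries, against 10.1, 9.94, 8.72 and 9.88 CPM in control libraries, all T3 libraries being below. The change was -0.40 ± 0.13 log2 (edgeR adjusted p = 0.0597), and it was called with RLE, upper-quartile or total-count scaling, without the length and GC trends and with any of 4 libraries left out singly. Sesn2 and Ddit4 also had all T3 libraries below all control libraries, as for 7.02% of all genes, with changes of -0.19 ± 0.08 log2 and -0.24 ± 0.11 log2 (adjusted p = 0.128 and 0.213 in edgeR). Atf4 and Ddit3 differed by 0.04 and 0.05 log2, with intervals of -0.10 to 0.18 and -0.20 to 0.30. Among all genes, 4.41% rose and 2.68% fell with T3 at 24 h. Of the marker lists, 3 of 11 astrocyte markers fell with T3 at 24 h and 1 rose (10163 to 11216 CPM summed with T3 and 10278 to 12156 CPM in control), and 1 of 7 tested oligodendrocyte lineage markers fell (493 to 502 CPM and 436 to 648 CPM). Of 5 tested vascular and meningeal markers 1 fell, Dcn with a change of -2.25 ± 0.68 log2, and their summed level was wholly lower with T3 (268 to 313 CPM with T3 and 315 to 385 CPM in control). No microglial or neuronal marker was called (50.7 to 58.0 CPM and 44.3 to 96.6 CPM for microglial markers, 427 to 542 CPM and 513 to 556 CPM for neuronal markers). Their part in these results was not tested.

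With CHX present, T3 called none of the 10 genes. CHX plus T3 against CHX at 6 h gave calls for 1.29% of all genes by edgeR (1.16% higher and 0.131% lower), while 1 of the 10 genes, Mthfd2, had an unadjusted p under 0.05 and DESeq2 called none of them. The difference for Atf4 was -0.06 log2, with an interval of -0.19 to 0.06. All 10 genes overlapped between these groups, where 7.16% of all genes were wholly above and 5.17% wholly below. Whether T3 acted differently in the presence of CHX was tested as an interaction, which was called for 1.22% of all genes (0.584% higher and 0.634% lower) and for none of the 10, with 1 at an unadjusted p under 0.05 and none by DESeq2. The difference of the T3 effect between 24 h and 6 h was called for 0.839% of all genes (0.541% higher and 0.298% lower) and for none of the 10, with 4 at an unadjusted p under 0.05 and none by DESeq2. Of the CHX libraries, replicates 1, 2 and 3 were on lane 5 and replicate 4 on lane 6 with the CHX plus T3 libraries. Summed oligodendrocyte lineage markers were wholly lower in CHX plus T3 (224.0 to 238.6 CPM) than in CHX (239.1 to 344.1 CPM). The other marker lists overlapped, and the part of this difference in the results was not tested.

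**Figure D5:**
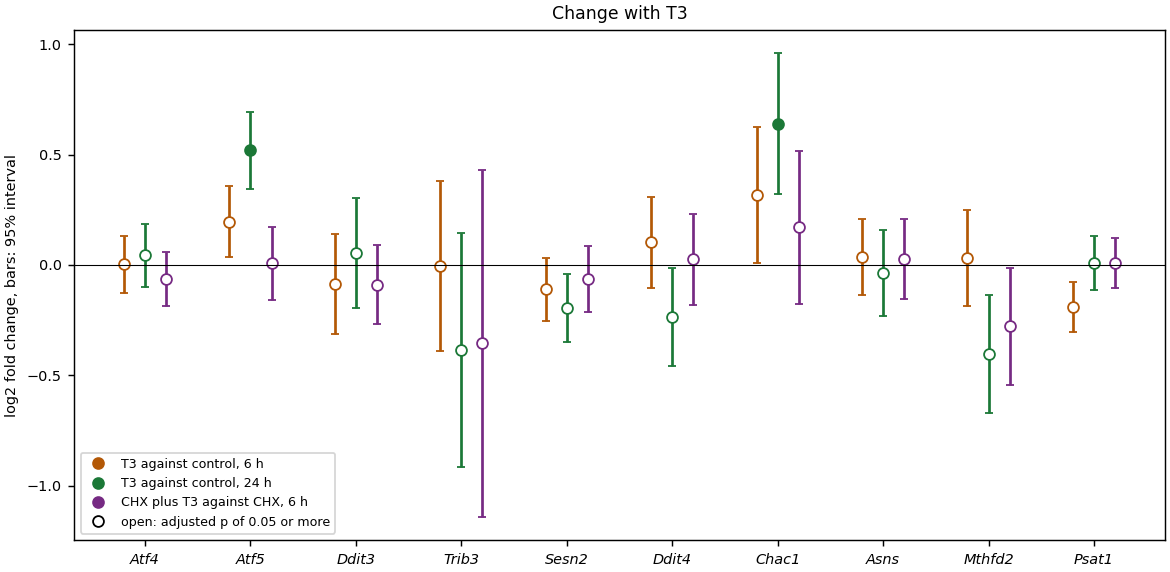
Log2 fold change of the 10 genes with T3 against control at 6 h and at 24 h and with CHX plus T3 against CHX at 6 h, with 95% intervals from edgeR. Filled points passed an adjusted p of 0.05, which Atf5 at 0.52 log2 and Chac1 at 0.64 log2 did at 24 h.

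Of the 90 tested genes of the related lists 10 rose and 4 fell with T3 at 24 h, where 4.41% of all genes rose and 2.68% fell. None of 13 genes of tRNA charging and export and none of 7 eIF2alpha kinases and phosphatase regulators was called. Of 16 endoplasmic reticulum chaperones and folding genes 5 rose, by 0.19 to 0.43 log2: Hspa5, Calr, Pdia3, Creld2 and Manf. Libraries overlapped for Creld2 (lowest T3 29.2 CPM, highest control 29.5 CPM) and Pdia3 (423 and 425 CPM). Calr had a T3 median of 429 CPM and a highest T3 library of 531 CPM, and Manf 87.8 and 115 CPM. These 5 calls were not repeated with libraries left out. Hspa5 had 499 ± 31.5 CPM with T3 (n = 3) and 404 ± 8.66 CPM in control (n = 4, SD), a change of 0.30 ± 0.05 log2. Of 11 amino acid transporters 3 fell, namely Slc7a11 by 0.68 ± 0.20 log2, Slc1a4 by 0.38 ± 0.07 log2 and Slc7a5 by 0.35 ± 0.07 log2. Of 10 other amino acid synthesis enzymes 3 rose, Cth by 0.64 ± 0.15 log2, Got1 by 0.41 ± 0.07 log2 and Glul by 0.17 ± 0.05 log2. Mthfd1 rose by 0.21 ± 0.06 log2, Xbp1 by 0.25 ± 0.08 log2, and Trib2, a relative of Trib3, fell by 0.36 ± 0.10 log2.

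At 6 h T3 changed 6 of the 90 tested genes of the related lists, or 6.67%, where 3.77% of all genes were called, and Glul was called at both times. Vegfa, the angiogenic growth factor, had 145 ± 30.3 CPM with T3 and 85.6 ± 5.85 CPM in control (SD, n = 4 each), a change of 0.76 ± 0.09 log2. Nupr1, a small stress-induced chromatin protein, rose by 0.52 ± 0.12 log2, Cebpg, a partner of ATF4, by 0.22 ± 0.06 log2 and Glul by 0.16 ± 0.04 log2. Cbs, the enzyme that starts transsulfuration, fell by 0.30 ± 0.07 log2, and Ddit4l, a relative of Ddit4, by 0.32 ± 0.07 log2. Each of these had an adjusted p under 0.05 in edgeR's test. The T3 effect on Vegfa with CHX minus that without it was -0.54 ± 0.14 log2 (edgeR adjusted p = 0.0471), and the effect at 24 h minus that at 6 h was -0.59 ± 0.14 log2 (edgeR adjusted p = 0.048). For Ddit4l the effect with CHX minus that without it was 0.41 ± 0.09 log2 (edgeR adjusted p = 0.0343), and for Hspa5 the effect at 24 h minus that at 6 h was 0.29 ± 0.07 log2 (edgeR adjusted p = 0.0496).

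In 24 h control against 6 h control 6 of the 10 genes fell and none rose, where 28.4% of all genes fell and 28.2% rose, 56.6% in all. Chac1, Atf5, Sesn2 and Ddit4 were not called, with changes of 0.06, -0.12, -0.15 and 0.12 log2. With lane as a covariate 3 fell. Trib3 had 0.818, 1.51, 1.12 and 1.37 CPM in 24 h libraries, against 3.53, 2.27, 2.73 and 3.03 CPM in 6 h libraries. Mthfd2 had 10.1, 9.94, 8.72 and 9.88 CPM in 24 h libraries, against 21.7, 17.7, 20.2 and 26.3 CPM in 6 h libraries. For both genes every 24 h library was below every 6 h library, with changes of -1.25 ± 0.21 log2 and -1.15 ± 0.11 log2 (adjusted p = 1.98e-05 and 6.08e-09 in edgeR).

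Atf4 was also lower at 24 h, with 65.2, 70.2, 63.9 and 69.0 CPM in 24 h control libraries and 96.5, 86.7, 87.5 and 95.7 CPM in 6 h control libraries, a change of -0.45 ± 0.06 log2 (edgeR adjusted p = 1.89e-06). Asns changed by -0.49 ± 0.09 log2, Ddit3 by -0.31 ± 0.11 log2 and Psat1 by -0.15 ± 0.05 log2. Every one of the 6 genes had its 24 h libraries below its 6 h libraries, as did 26.3% of all genes, while 24.8% were wholly above. For Psat1 the groups all but touched, at 290.297 CPM in the highest 24 h library and 290.314 CPM in the lowest 6 h library. The calls of Ddit3 and Psat1 ended with upper-quartile or total-count scaling, and leaving out 6 h control replicate 4 gave -0.27 log2 for Ddit3 (adjusted p = 0.0665) and -0.10 log2 for Psat1 (adjusted p = 0.12). Ddit3 was also not called without 24 h control replicate 1 or 3, nor Psat1 without 24 h control replicate 2 or 4 or 6 h control replicate 1. Without CHX, lane 5 carried every library of 6 h and lanes 6 and 7 those of 24 h, so in these groups time and lane cannot be told apart. With lane as a covariate, an estimate that rests on CHX replicate 4 and 24 h T3 replicate 3, Atf4, Asns and Mthfd2 were called lower, and Trib3 was not (-0.80 log2, adjusted p = 0.492).

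Between the T3 groups, 5 of the 10 genes fell and 2 rose at 24 h against 6 h, where 28.2% of all genes fell and 29.3% rose, 57.6% in all. Their libraries were wholly below for 5 and wholly above for 1, as for 25.7% and 25.4% of all genes. Mthfd2 changed by -1.58 ± 0.12 log2, Trib3 by -1.63 ± 0.23 log2, Asns by -0.56 ± 0.09 log2, Atf4 by -0.41 ± 0.07 log2 and Sesn2 by -0.23 ± 0.08 log2. With lane as a covariate 3 fell, Atf4, Asns and Mthfd2, and none rose, and the direction of Sesn2 turned (0.071 log2, adjusted p = 0.71 in edgeR). Sesn2 had 36.3, 40.0 and 36.4 CPM in 24 h T3 libraries, against 43.5, 46.7, 45.6 and 40.7 CPM in 6 h T3 libraries. Chac1 rose by 0.39 ± 0.15 log2 (edgeR adjusted p = 0.0323) and Atf5 by 0.20 ± 0.08 log2 (edgeR adjusted p = 0.0401), both close to the threshold. Chac1 was not called with any of the 24 h T3 libraries left out singly (adjusted p = 0.0502 to 0.0765) or without 6 h T3 replicate 1 or 3. Atf5, whose groups overlapped, was not called without 24 h T3 replicate 1 (0.07 log2, adjusted p = 0.468) or without 6 h T3 replicate 1 or 4. Of the 90 tested genes of the related lists, 54 fell and 10 rose in 24 h control against 6 h control, and 48 fell and 14 rose in 24 h T3 against 6 h T3. In the control comparison 28.4% of all genes fell and 28.2% rose. In control, 9 of 11 stress factors and secreted targets fell, with a median of -1.10 log2, as did 14 of 16 folding genes, with a median of -0.44 log2, 9 of 13 genes of tRNA charging and 7 of 11 transporters, with a median of -0.50 log2, against a median of -0.00 log2 over all genes. Lists with mostly falls held genes higher at 24 h too, such as Lars among those of tRNA charging. It had 96.6 ± 1.87 CPM in 24 h control and 76.3 ± 4.38 CPM in 6 h control (SD, n = 4 each). Of 10 other amino acid synthesis enzymes 3 fell and 2 rose (median -0.07 log2). Of 10 serine, glycine and one-carbon enzymes 2 fell and 1 rose (median -0.12 log2).

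Some cell type markers were called with time as well, and their counts are read against all genes. Of all genes 28.2% rose and 28.4% fell in 24 h control against 6 h control. Between the T3 groups 29.3% rose and 28.2% fell. In 24 h control against 6 h control 5 of 11 astrocyte markers fell and 1 rose (10278 to 12156 CPM summed at 24 h and 11166 to 11962 CPM at 6 h), while 5 of 7 neuronal markers rose and 1 fell (513 to 556 CPM and 478 to 519 CPM). Of 7 tested oligodendrocyte lineage markers 4 rose and 1 fell (436 to 648 CPM and 384 to 432 CPM), of 10 microglial markers 4 rose (44.3 to 96.6 CPM and 43.6 to 54.7 CPM), and of 5 tested vascular and meningeal markers 2 rose and 1 fell (315 to 385 CPM and 287 to 478 CPM). In 24 h T3 against 6 h T3 7 of 11 astrocyte markers fell and 2 rose (10163 to 11216 CPM and 12563 to 12855 CPM). There 2 microglial markers rose and 1 fell (50.7 to 58.0 CPM and 57.8 to 64.2 CPM), 1 oligodendrocyte lineage marker rose and 1 fell (493 to 502 CPM and 408 to 456 CPM), 1 neuronal marker fell (427 to 542 CPM and 490 to 553 CPM) and 1 vascular and meningeal marker rose (268 to 313 CPM and 286 to 396 CPM). The part of these changes in the results was not tested.

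Across the 6 groups, the tested protein-coding gene nearest to Atf4 in its centred group means was Pde4b, with a root-mean-square difference of 0.10 log2 among 14104 candidates, followed by Ddit3 at 0.11 and Nfkbie at 0.12. For Ddit3 the nearest were Prickle1 at 0.09, Atf4 at 0.11 and Madcam1 at 0.16. For Asns they were Zcchc14 at 0.02, Erap1 at 0.02 and Bzw1 at 0.03, so none of the other 9 genes was among its nearest. These values describe 6 group means and carry no test.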

How the data were processed

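RNA of 23 libraries was sequenced as single reads of 50 nt from 200 ng of total RNA with a kit that marks no strand, per the labels' protocols. Per the submitters' processing notes the build was GRCm38 and the tools included HTSeq, TopHat, Bowtie, bcl2fastq, FastQC and edgeR. For counting mode, strand setting and annotation release the sources used here state nothing. The deposited files hold raw counts per Ensembl gene, 1 file per library, as whole numbers. Lines that name no gene stayed out of library sizes and tests: no feature 3.75 to 5.81%, ambiguous 1.4 to 1.7%, not unique 30.7 to 42.3% of a file's total. Symbols came from GENCODE M21, in which 36429 of 38293 identifiers and 147 of 147 listed symbols were found.

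Genes were kept by filterByExpr (minimum count 10), library sizes were scaled by TMM, and edgeR 4.0.16 (R 4.3.3) fitted all 23 libraries with a mean for each of the 6 groups (quasi-likelihood F test), with 17 residual degrees of freedom and a biological coefficient of variation of 8.57%. P-values were adjusted by Benjamini-Hochberg over 16087 genes and called under 0.05. SEs are the absolute log2 change over the root of its F. CPM was computed here from the deposited counts. The fit was tested on simulated data. Exon overlaps came from the annotation, and runs of 50 nt shared with other genes made up 4.38% of Ddit3, 1.81% of Atf5, 0.739% of Psat1 and 0% of the other 7 genes. For Ddit3 the genes sharing runs were Mars and another record named Ddit3, which overlaps it on the same strand. No 2 files were identical among 33 replicate pairs, and each pair differed by more than sampling noise (chi-square per degree of freedom 1.73 to 38.4). The highest values, 30.5 and 38.4, were those of 24 h T3 replicate 1 against replicates 2 and 3. Replicates 2 and 3 of that group gave 2.72.

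The 10 genes and the related lists were chosen with earlier results of these data known. The text names, from each list, up to 3 genes with the smallest adjusted p under CHX and any called with T3. Alternatives were RLE, upper-quartile and total-count scaling, no filter, fits to the groups compared only, lane as a covariate, comparisons within a lane, replicate blocks, removal of length and GC trends, DESeq2 1.42.0 and leaving out each library.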

Additional observations from a re-analysis of the deposited data

Results flagged for a closer look

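In 50 groups of 4 libraries, the highest or lowest library of 2 stood apart from the other 3 by Dixon's criterion, which chance meets in about 1 group in 20. Mthfd2 had 8.72 CPM in 24 h control replicate 3, against 9.88 to 10.1 CPM in the other 3 libraries. Sesn2 had 28.3 CPM in 6 h CHX plus T3 replicate 3, against 26.2 to 26.5 CPM in the other 3.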

How the results depend on the processing

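The 2 rises and 7 falls with CHX against control kept their direction and their calls under every alternative run. Among counts of the 10 genes, 1 fell with T3 at 6 h under RLE and upper-quartile scaling, lane as a covariate, removal of length and GC trends and DESeq2, and 1 fell with T3 at 24 h under RLE, upper-quartile and total-count scaling, trend removal and DESeq2. Trend removal also gave 1 rise with T3 at 6 h. In 24 h T3 against 6 h T3, 1 rose under RLE scaling, without the filter, with the groups compared alone, under the replicate block, the block by letter and DESeq2, and 0 under trend removal and lane. Lane gave 3 falls in each comparison of times and 1 higher T3 effect at 24 h than at 6 h.

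Counts of all genes called moved by over 1.5 times as follows. With the groups compared alone they were 401 for T3 at 24 h, 407 for CHX plus T3 against CHX, 497 for the CHX interaction of T3 and 62 for the T3 effect at 24 h and 6 h, against 1140, 208, 196 and 135. With lane they were 660 for CHX plus T3 against CHX, 966 and 521 for the 2 differences of T3 effects, and 4414 and 5409 for the control and T3 comparisons of times, against 9105 and 9259. Trend removal gave 991 for T3 at 6 h, against 606, 352 for CHX plus T3 against CHX, and 601 and 329 for the 2 differences. DESeq2 gave 343, 514 and 365 for the last 3. Within lane 6 CHX plus T3 against CHX gave 930, with a lone CHX library assumed to vary like the others, and no value for Trib3. Without the filter the CHX interaction of T3 gave 295. Replicate numbers did not pair the libraries (1 of 26 pairs correlated over 0.1, 2 of 26 by letter), and the replicate block gave 381, the block by letter 368, and 213 for the difference between times. The cause was not tested.

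Leaving out 1 library gave 349 to 989 genes for T3 at 6 h, 138 to 417 for CHX plus T3 against CHX, 30 to 479 and 69 to 350 for the 2 differences, 0 to 1 falls of the 10 genes with T3 at 6 h and at 24 h, and 0 to 2 rises at 24 h T3 against 6 h T3. Lane turned Ddit4 in CHX plus T3 against T3 to 0.048 log2 and Sesn2 in 24 h T3 against 6 h T3 to 0.071 log2, and trend removal turned Atf5 there to -0.030 log2. Total-count scaling moved the median of all genes in 24 h control against 6 h control to 0.11 log2. Trib3 rests on 3 to 11 reads per CHX library.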
